A study of Mus musculus with 9 samples.

Results

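Sirtuins are enzymes that use NAD+ to remove acetyl and other acyl groups from proteins, so their activity is tied to the energy state of the cell. The mouse has 7 of them, Sirt1 to Sirt7. Members were taken by symbol, with earlier results of these data known. All 7 are described here, out of 26602 genes with a count in mouse midbrain. Sirt1, Sirt6 and Sirt7 act mainly in the nucleus, Sirt2 in the cytosol and Sirt3, Sirt4 and Sirt5 in mitochondria. In the brain they are known for their parts in mitochondrial metabolism, myelin and the response to oxidative stress. DJ-1, the product of Park7, is a redox-sensitive protein whose loss causes a recessive, early-onset form of Parkinson disease.

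The study compared DJ-1+/+ with DJ-1-/- mice to ask which genes and pathways differ in the brain of young DJ-1-deficient animals, and the sirtuin signalling pathway was among the pathways it listed. Midbrain containing the SNpc, the nucleus whose dopaminergic neurons are lost in Parkinson disease, came from 4 DJ-1+/+ and 5 DJ-1-/- mice of 3 to 4 months, with 1 library per mouse. The DJ-1-/- mice carried 2 copies of a targeted, germline DJ-1 allele in every cell, were backcrossed to C57BL/6, and shared cages with the DJ-1+/+ mice, both genotypes coming from heterozygous matings. The sources name no treatment of these mice. The libraries read a fragment near the 3′ end of each mRNA and carried unique molecular identifiers (UMIs), tags that let each molecule be counted once, so counts do not grow with transcript length and levels of different sirtuins can be compared.

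Library totals were 841974 to 886085 counts in DJ-1+/+ and 967751 to 1098125 counts in DJ-1-/- mice, so every DJ-1-/- library was the deeper. A level is given as cpm, the share of the library's total scaled to 1000000 counts. The floor of detection was set at 3 counts, or 2.73 to 3.56 cpm, and allows for counting error only. Park7 had 105 to 132 counts in DJ-1+/+ and 14 to 29 counts in DJ-1-/- mice, a log2 fold change of −2.71 (standard error 0.15, adjusted p = 7.39e-08, edgeR). Ddx3y, on the Y chromosome, marked 2 of 4 DJ-1+/+ and 1 of 5 DJ-1-/- mice as male. DJ-1+/+ replicate 1 stood apart by its summed cerebellar neuron markers (1521 cpm, against 519 to 736 cpm in the other DJ-1+/+ mice and 559 to 727 cpm in DJ-1-/- mice). DJ-1+/+ replicate 4 stood apart by its choroid plexus markers (918 cpm, against 157 to 393 cpm and 161 to 261 cpm). All 10 dopaminergic neuron markers were found in both genotypes, with sums of 525 to 966 cpm in DJ-1+/+ and 759 to 1025 cpm in DJ-1-/- mice, although Pitx3 had 0 counts in 2 DJ-1+/+ libraries. The neuron, oligodendrocyte, astrocyte, microglia, endothelial and erythrocyte sums overlapped between genotypes.

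The stretch that makes a sirtuin a sirtuin is its NAD+-binding core. To show how alike the members are, the 30 coding bases that start at the codons of its glycine-alanine-glycine motif are printed here from GENCODE M21 (GRCm38), with the codons of that motif and the next one in capitals and the rest in lower case.
Sirt1: GGAGCTGGGGTTtctgtctcctgtgggatt
Sirt2: GGAGCCGGAATCtccacgtccgcgggtatc
Sirt3: GGGGCCGGCATCagcacacccagtggcatc
Sirt4: GGCGCGGGGATCtccaccgagtccggcatc
Sirt5: GGGGCTGGCGTTagtgcggagagtggggtt
Sirt6: GGCGCCGGCATCagcaccgcctctggcatc
Sirt7: GGCGCTGGAATCagcacagcagcttctatc

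Each coding sequence held this run of codons once. In Sirt3, Sirt4, Sirt5 and Sirt6 the 30 bases lay within 1 exon, at chr7:140877968-140877997 (minus strand, exon 2), chr5:115482908-115482937 (minus, exon 2), chr13:43371888-43371917 (plus, exon 3) and chr10:81626501-81626530 (minus, exon 2). They crossed an intron in Sirt1 (chr10:63331877-63335644, minus, exons 8 and 9), Sirt2 (chr7:28776881-28777006, plus, exons 5 and 6) and Sirt7 (chr11:120622200-120624507, minus, exons 3 and 4). The windows were found by this motif, so the bases that define it match in every pair by design. Over the 21 pairs of members, 12 to 25 of the 30 bases were identical, with a median of 18. Over these bases alone Sirt3 and Sirt6 were the most alike pair, with 25, although their proteins work in mitochondria and in the nucleus. The longest run shared by any pair of members' transcripts was 23 bases, between Sirt1 and Sirt5.

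All 7 sirtuins had at least 1 count in each of the 9 mice. Sirt2 was the highest at 139 ± 12.6 cpm (n = 9, SD), followed by Sirt3 at 64.6 ± 11.3, Sirt7 at 47.6 ± 4.98, Sirt1 at 45.7 ± 3.49, Sirt5 at 33.8 ± 7.36, Sirt6 at 19.2 ± 3.41 and Sirt4 at 7.14 ± 4.01 cpm. The 3′ end of Sirt3 overlaps Ric8a, and reads of that overlap cannot be assigned, so its place in this order is less certain. Sirt2 lay above 91.4% of the 18127 genes tested by its mean level, and Sirt4 above 25.02%. The lowest Sirt2 library was above the highest Sirt3 library, and the lowest Sirt6 library was above the highest Sirt4 library. The other neighbours in the order overlapped in range, but within a mouse Sirt3 was above Sirt7 in 8 of 9 libraries, Sirt1 above Sirt5 in 9 of 9 and Sirt5 above Sirt6 in 9 of 9. Sirt7 and Sirt1 did not differ beyond their spread, with Sirt7 the higher in 1 of 4 DJ-1+/+ and 4 of 5 DJ-1-/- mice.

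**Figure D1:**
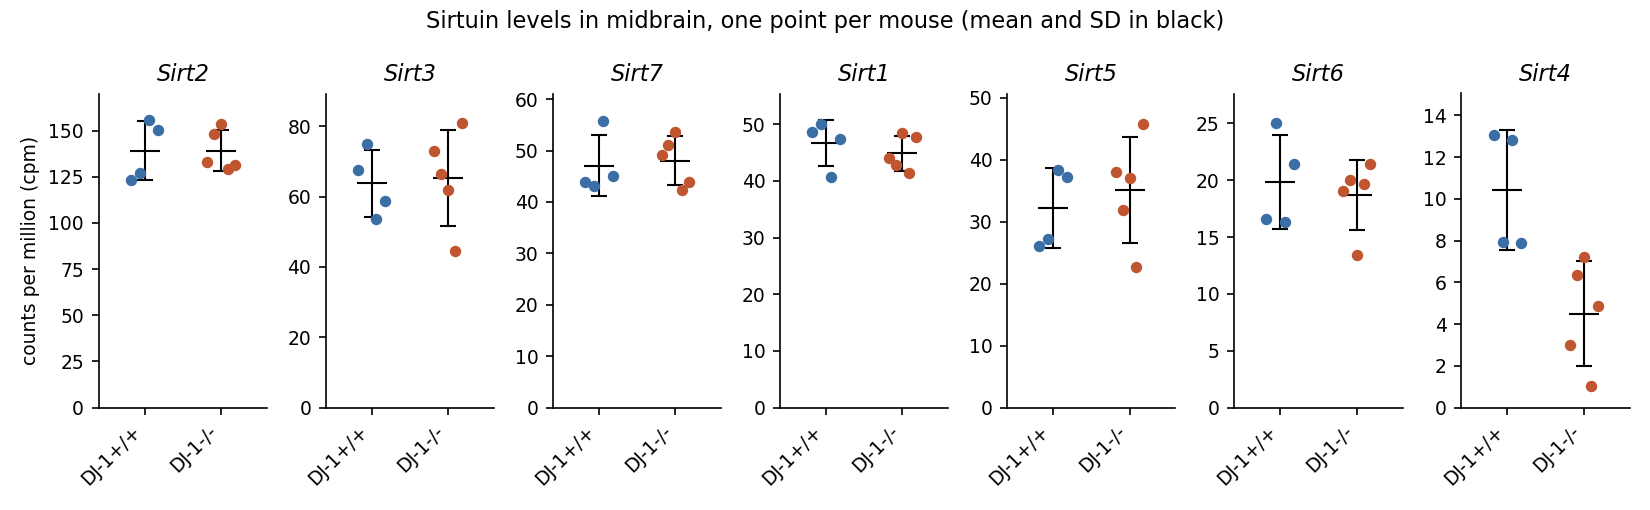
Level of each sirtuin in cpm (linear axes from 0, a separate scale for each gene), with 1 point per mouse, DJ-1+/+ (n = 4) in blue and DJ-1-/- (n = 5) in orange, and the mean and SD in black. Genes run from the highest (Sirt2, 139 cpm) to the lowest (Sirt4, 7.14 cpm), and only the Sirt4 points do not overlap between genotypes.

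Between the genotypes, the levels of 6 of the 7 sirtuins were close to each other, with a log2 fold change of DJ-1-/- over DJ-1+/+ between −0.08 and 0.12. Sirt4 was the exception, with 4.50 ± 2.52 cpm (n = 5, SD) in DJ-1-/- against 10.4 ± 2.89 cpm (n = 4, SD) in DJ-1+/+ mice. None of the 7 passed an adjusted p of 0.05 in edgeR's quasi-likelihood test, where the adjusted p was 0.99997 for each. In the whole data set 1 gene, Park7, passed it (0.00552% of genes tested). At an unadjusted p under 0.05, 1 of 7 sirtuins was called, Sirt4, beside 2.83% of all genes tested and 1.26% called as lower in DJ-1-/-. These are bulk tissue samples, so fewer cells that express a sirtuin and less sirtuin mRNA per cell cannot be told apart. Nothing in the sources says that the mice came from separate litters, and p-values measure the spread between these 9 mice.

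**Figure D2:**
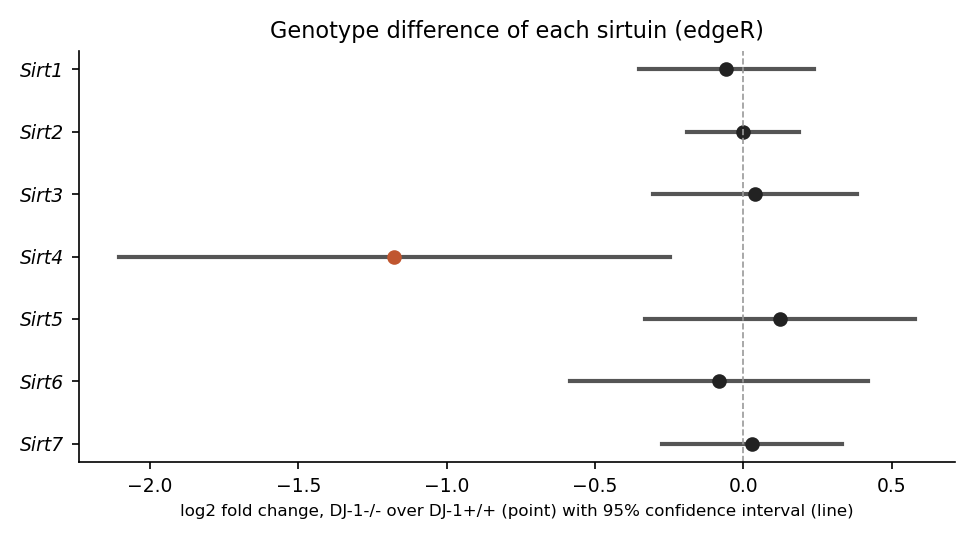
Log2 fold change of DJ-1-/- over DJ-1+/+ for each sirtuin (points) with its 95% confidence interval from edgeR (lines); the dashed line marks no difference. The interval of Sirt4, in orange, lies between −2.11 and −0.25, and the other 6 intervals include 0.

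Sirt4 is a mitochondrial enzyme known to restrain glutamate dehydrogenase and pyruvate dehydrogenase. It lies at chr5:115478010-115484725 on the minus strand, and no other annotated gene overlaps it. In DJ-1+/+ mice it had 11, 7, 11 and 7 counts, which are 13.1, 7.96, 12.8 and 7.90 cpm. In DJ-1-/- mice it had 3, 7, 7, 1 and 5 counts, which are 3.003, 6.37, 7.22, 1.03 and 4.87 cpm. Every DJ-1+/+ mouse was thus above every DJ-1-/- mouse in cpm, as was the case for 1.25% of all genes tested in either direction and for 0.585% with DJ-1-/- the lower. The raw counts met at 7, in replicates 2 and 4 of DJ-1+/+ against replicates 2 and 3 of DJ-1-/-, so that the gap between the genotypes there came from the library totals.

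The mean Sirt4 level in DJ-1-/- was 43.2% of that in DJ-1+/+ mice. The fitted log2 fold change was −1.18 (standard error 0.44, 95% confidence interval −2.11 to −0.25, unadjusted p = 0.0162 and adjusted p = 0.99997, edgeR), a fold of 0.442 with an interval of 0.232 to 0.842. By this p it was the gene ranked 127 of 18127. The exact two-sided permutation test of mean cpm gave p = 0.0159, the smallest that 4 mice against 5 allow. That p follows from the lack of overlap in cpm and adds no separate evidence. Summed over mice, 36 of 3467509 counts in DJ-1+/+ came from Sirt4 (10.4 cpm, exact 95% Poisson interval 7.27 to 14.4) and 23 of 5060495 in DJ-1-/- (4.55 cpm, 2.88 to 6.82). These 2 intervals cover counting error only and leave out the spread between mice, so they do not test the genotypes. The lowest DJ-1-/- library held 1 count, under the 3 counts that can be shown, and another held 3.

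**Figure D3:**
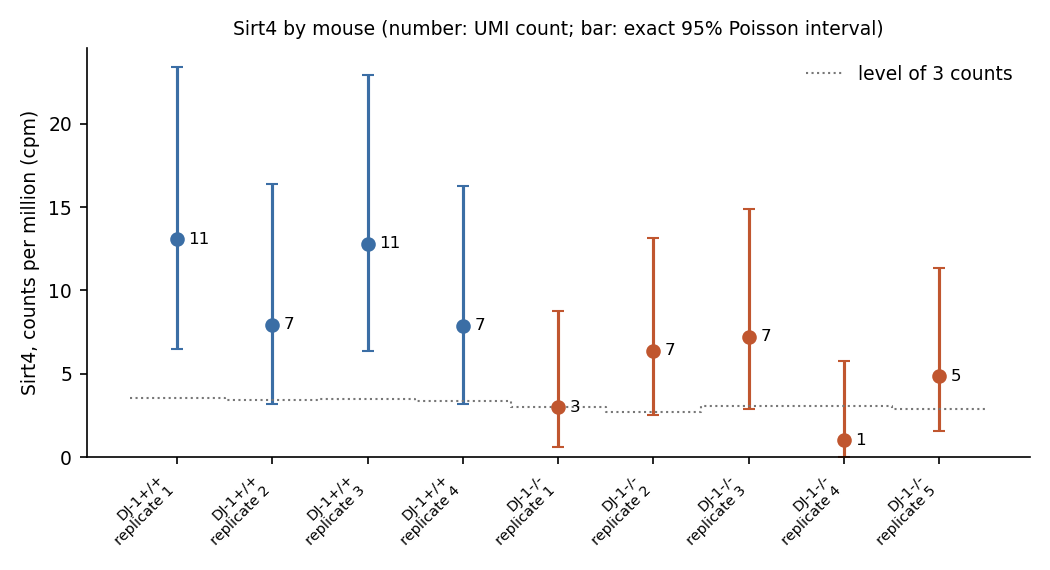
Sirt4 level in cpm (linear axis from 0) in each mouse, with the UMI count beside each point, the exact 95% Poisson interval of that count as a bar and the level of 3 counts as a dotted line. The points of DJ-1+/+ (blue, 7.90 to 13.1 cpm) lie above those of DJ-1-/- mice (orange, 1.03 to 7.22 cpm), while most intervals of single mice overlap and that of DJ-1-/- replicate 4 (0.026 to 5.76 cpm) lies below those of DJ-1+/+ replicates 1 and 3.

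Leaving out each mouse in turn kept the Sirt4 log2 fold change between −1.39 and −0.95, with unadjusted p-values of 0.0106 to 0.0475 in edgeR. Without both DJ-1+/+ mice with cerebellar or choroid plexus markers it was −1.17 (unadjusted p = 0.0527, edgeR), and over the 6 mice with Xist expression, which are female, it was −1.20 (unadjusted p = 0.0563, edgeR). The size was thus as large without those libraries, with the unadjusted p above 0.05. Both settings leave out DJ-1+/+ replicates 1 and 4, the male DJ-1+/+ mice, so in this genotype sex and dissection cannot be told apart. The second also leaves out DJ-1-/- replicate 5. All 10 dopaminergic neuron markers had a higher fitted level in DJ-1-/- mice, 4 of them at an unadjusted p under 0.05, beside 1.57% of all genes. All 10 markers of cerebellar neurons and all 10 of choroid plexus had a lower one. Of each, 5 had an unadjusted p under 0.05, beside 1.26% of all genes. Some rest on 1 mouse, as Gabra6 (102 counts in DJ-1+/+ replicate 1, at most 2 elsewhere) and F5 (66 in replicate 4, at most 10 elsewhere). Markers of a list share dissections and are not separate evidence. None of these markers passed the adjusted test. The part of dopaminergic neurons in the Sirt4 result was not tested.

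Sirt3 is the main protein deacetylase of the mitochondrial matrix, and lies at chr7:140863666-140882309 on the minus strand. Its libraries held 57, 66, 46 and 52 counts in DJ-1+/+ mice, and 73, 73, 60, 43 and 83 counts in DJ-1-/- mice. The levels were 63.7 ± 9.53 cpm (n = 4, SD) and 65.4 ± 13.7 cpm (n = 5, SD), and the highest and the lowest mouse were both DJ-1-/-. The log2 fold change was 0.04 (95% confidence interval −0.30 to 0.38, edgeR). The 3′ end of Sirt3, where these libraries are read, overlaps the end of Ric8a on the other strand by 707 bases. The sources used here do not say whether counting used the strand, so reads of the overlap cannot be assigned. Ric8a itself averaged 63.0 ± 12.4 cpm with DJ-1+/+ and 65.6 ± 12.1 cpm with DJ-1-/- genotype (log2 fold change 0.06).

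Sirt5 removes succinyl, malonyl and glutaryl groups from mitochondrial proteins, and lies at chr13:43365496-43395203 on the plus strand. Its libraries held 22, 24, 33 and 33 counts in DJ-1+/+ mice, and 38, 35, 36, 22 and 47 counts in DJ-1-/- mice. The DJ-1-/- values again enclosed those of the DJ-1+/+ mice, at 35.1 ± 8.52 cpm (n = 5, SD) against 32.3 ± 6.45 cpm (n = 4, SD). The log2 fold change was 0.12 (95% confidence interval −0.33 to 0.58, edgeR), which still allows a change of up to 0.58 on the log2 scale. Among DJ-1-/- mice, replicate 4 was the lowest and replicate 5 the highest for both Sirt3 and Sirt5. In DJ-1+/+ mice this was not seen, since replicate 3 had the lowest Sirt3 and the highest Sirt5 level.

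Sirt4 accounted for 12.2%, 7.22%, 12.2% and 7.61% of the counts of the 3 mitochondrial sirtuins in DJ-1+/+ mice, and for 2.63%, 6.09%, 6.80%, 1.52% and 3.70% in DJ-1-/- mice. This share does not depend on the library total, and its values did not overlap either (9.82% ± 2.78, n = 4, against 4.15% ± 2.25, n = 5). It rests on the same Sirt4 counts and adds no separate evidence. The summed level of the mitochondrial sirtuins was 106 ± 2.86 cpm (n = 4, SD) in DJ-1+/+ mice and 105 ± 23.2 cpm (n = 5, SD) in DJ-1-/- mice. The means were thus close, while the DJ-1-/- mice spread from 68.2 cpm in replicate 4 to 132 cpm in replicate 5.

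Sirt2 deacetylates tubulin in the cytosol and is known as a sirtuin of oligodendrocytes, the cells that make myelin. It lies at chr7:28766735-28788661 on the plus strand. Its libraries held 104, 112, 134 and 133 counts in DJ-1+/+ mice, and 133, 163, 149, 125 and 135 counts in DJ-1-/- mice. The DJ-1-/- levels (129 to 154 cpm) lay within the range of the DJ-1+/+ levels (124 to 156 cpm). The log2 fold change was −9.4e-05 (95% confidence interval −0.19 to 0.19, edgeR), the narrowest interval of the family. The summed level of 12 oligodendrocyte markers was 2532 to 3341 cpm in DJ-1+/+ and 2779 to 3129 cpm in DJ-1-/- mice. DJ-1+/+ replicate 3 was the highest for both Sirt2 and these markers, but DJ-1+/+ replicate 1 had the lowest Sirt2 level (124 cpm) with a marker sum of 3193 cpm.

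Sirt1, a nuclear deacetylase of transcription factors such as Trp53 and the Foxo proteins, lies at chr10:63319005-63381704 on the minus strand. Its libraries held 41, 44, 35 and 42 counts in DJ-1+/+ mice, and 44, 47, 47, 40 and 49 counts in DJ-1-/- mice. The levels were 46.7 ± 4.13 cpm (n = 4, SD) and 44.9 ± 3.12 cpm (n = 5, SD), with a log2 fold change of −0.06 (95% confidence interval −0.35 to 0.24, edgeR). The DJ-1-/- values all fell within the range of the DJ-1+/+ values. Sirt1 varied among mice less than counting alone would give on average, with a chi-square per degree of freedom of 0.315 in DJ-1+/+ and 0.216 in DJ-1-/- mice.

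Sirt6 is a histone deacetylase bound to chromatin that takes part in DNA repair, and lies at chr10:81621785-81627797 on the minus strand. Its libraries held 14, 22, 14 and 19 counts in DJ-1+/+ mice, and 19, 22, 13, 19 and 22 counts in DJ-1-/- mice. The groups overlapped, at 19.8 ± 4.17 cpm (n = 4, SD) and 18.7 ± 3.09 cpm (n = 5, SD). The log2 fold change was −0.08 with a 95% confidence interval of −0.59 to 0.42 in edgeR, so that a change of that size in either direction could not be shown at this depth.

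Sirt7, a sirtuin of the nucleolus linked to the transcription of ribosomal RNA genes, lies at chr11:120618372-120625240 on the minus strand. Its libraries held 37, 38, 48 and 40 counts in DJ-1+/+ mice, and 49, 56, 52, 41 and 45 counts in DJ-1-/- mice. DJ-1+/+ replicate 3 was the highest of all mice at 55.8 cpm, while the other 3 DJ-1+/+ mice lay at 43.2 to 45.1 cpm. The means were 47.0 ± 5.93 cpm (n = 4, SD) and 48.0 ± 4.77 cpm (n = 5, SD), and the log2 fold change was 0.03 (95% confidence interval −0.27 to 0.33, edgeR). Away from their 3′ ends, Sirt7 overlaps Mafg on the same strand by 124 bases and Sirt2 overlaps Nfkbib on the other strand by 778 bases.

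Spread between mice differed by member. In DJ-1-/- mice, Sirt3 and Sirt5 had the highest chi-square per degree of freedom, 2.83 and 2.06, whereas Sirt1, Sirt2, Sirt6 and Sirt7 stayed at or below 0.883. Each value rests on 4 or 5 mice, and whether any exceeds counting error was not tested. In DJ-1+/+ mice Sirt2 had the highest value, 1.62, and Sirt3 had 1.24. Sirt4 was at 0.697 in DJ-1+/+ and 1.38 in DJ-1-/- mice. Its mean counts there were 9 and 4.6, too low for these values to tell spread between mice from counting error.

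The family as a whole reached 359 ± 15.0 cpm (n = 4, SD) in DJ-1+/+ and 356 ± 31.5 cpm (n = 5, SD) in DJ-1-/- mice. Nuclear sirtuins made up 31.6% ± 1.32 and 31.5% ± 1.67 of it, Sirt2 38.7% ± 3.04 and 39.3% ± 3.21, and mitochondrial sirtuins 29.7% ± 1.80 and 29.2% ± 4.57. The 3 nuclear members together summed to 114 ± 3.68 cpm for DJ-1+/+ and 112 ± 4.77 cpm for DJ-1-/-. The makeup of the family by compartment was thus within the spread between mice for each class. DJ-1-/- replicate 4 had the lowest family level, 301 cpm, with 66 mitochondrial sirtuin counts where the 4 others of its genotype had 103 to 135.

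**Figure D4:**
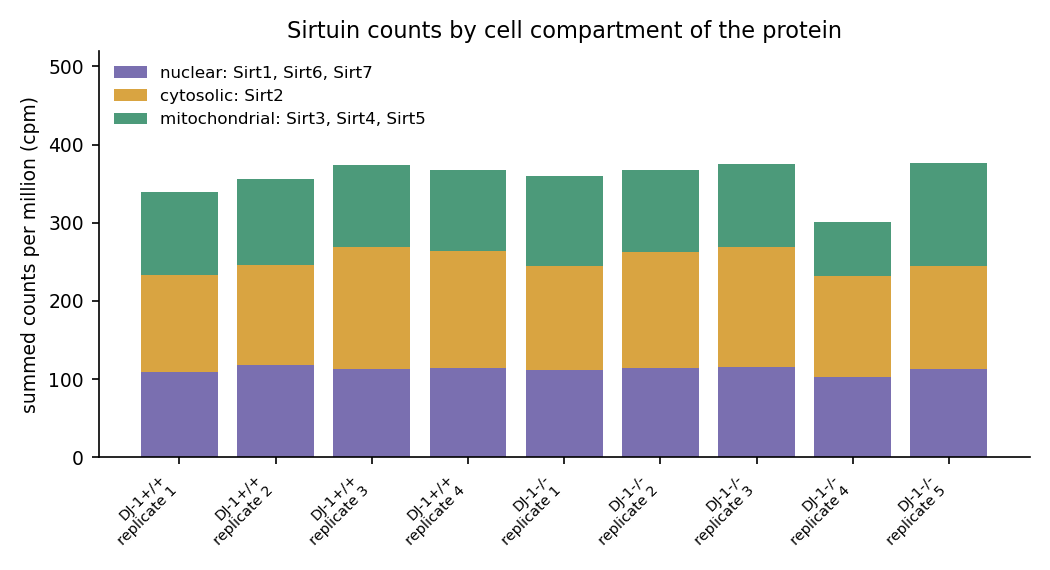
Summed level of the sirtuins in cpm (linear axis from 0) in each mouse, stacked by the compartment in which the proteins mainly act. The bars reach 340 to 373 cpm in DJ-1+/+ and 301 to 376 cpm in DJ-1-/- mice, and the lowest, DJ-1-/- replicate 4, has the smallest mitochondrial part (68.2 cpm).

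Sirtuins depend on the supply of NAD+, so genes of NAD+ synthesis and salvage were read beside them. Of 20 listed genes 16 were tested, and their log2 fold changes, 8 above and 8 below 0, had a median of 0.03 beside 0.0079 over all genes tested. None passed the adjusted test, and 1 had an unadjusted p under 0.05, as had 1.57% of all genes with DJ-1-/- the higher. This was Nmrk1, the nicotinamide riboside kinase, with 19, 24, 25 and 19 counts in DJ-1+/+ and 32, 35, 29, 33 and 40 counts in DJ-1-/- mice. Its level was 25.1 ± 3.67 cpm (n = 4, SD) against 33.4 ± 3.46 cpm (n = 5, SD), without overlap, as in 0.662% of genes with DJ-1-/- the higher. The log2 fold change was 0.41 (standard error 0.18, unadjusted p = 0.0381 and adjusted p = 0.99997, edgeR). It went to 0.25 (unadjusted p = 0.288, edgeR) without DJ-1+/+ replicates 1 and 4, and to 0.18 (unadjusted p = 0.453, edgeR) over the 6 mice with Xist expression. Leaving out DJ-1+/+ replicate 1 or 4 or DJ-1-/- replicate 4 or 5 alone also took its unadjusted p above 0.05, to 0.0612 to 0.109 in edgeR.

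Nampt, the rate-limiting enzyme of NAD+ salvage, was at 96.5 ± 5.87 cpm (n = 4, SD) in DJ-1+/+ and 92.3 ± 10.9 cpm (n = 5, SD) in DJ-1-/- mice, and had the lowest log2 fold change of the list among genes with a mean of at least 10 counts (−0.06, standard error 0.10). Nadsyn1, the glutamine-dependent NAD+ synthetase, had the highest of those genes, 0.56 with a standard error of 0.35, and its groups overlapped. Kynu, Afmid, Ido1 and Nmrk2 had too few counts to be tested.

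Among enzymes that compete with sirtuins for NAD+ or dispose of nicotinamide, 10 of 12 were tested, and 6 had a log2 fold change above and 4 below 0, the median being 0.10. None had an unadjusted p under 0.05. Aox1, an aldehyde oxidase that oxidises nicotinamide products, had the highest log2 fold change (0.39, standard error 0.31). Without DJ-1+/+ replicates 1 and 4 it was 0.86 (unadjusted p = 0.0452 and adjusted p = 0.999, edgeR), and it was 0.83 over the 6 mice with Xist expression (unadjusted p = 0.0695, edgeR) and 0.19 to 0.57 with 1 mouse left out. Tnks, a poly-ADP-ribose polymerase that acts on telomere proteins, had the lowest (−0.09, standard error 0.08). The groups overlapped for both genes.

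Of the 34 substrates and regulators of nuclear and cytosolic sirtuins all were tested, and 14 had a log2 fold change above and 20 below 0, the median being −0.03. None had an unadjusted p under 0.05. The values of Trp53, a Sirt1 substrate, were 9.03 to 17.5 cpm for DJ-1+/+ and 10.3 to 26.0 cpm for DJ-1-/- (log2 fold change 0.31, standard error 0.34). Crtc2, a CREB coactivator deacetylated by Sirt1, had the lowest value among genes with a mean of at least 10 counts, −0.44 with a standard error of 0.52, and ranged from 1 to 24 counts over the 9 mice. G6pdx, the glucose-6-phosphate dehydrogenase deacetylated by Sirt2, had the smallest p of the list (log2 fold change 0.24, unadjusted p = 0.121, edgeR).

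Mitochondrial sirtuin substrates were 26, of which 25 were tested, 18 with a log2 fold change above and 7 below 0, the median being 0.04. None had an unadjusted p under 0.05. Sod2, the mitochondrial superoxide dismutase activated by Sirt3, was at 138 ± 9.88 cpm (n = 4, SD) in DJ-1+/+ and 151 ± 9.30 cpm (n = 5, SD) in DJ-1-/- mice (log2 fold change 0.12, unadjusted p = 0.155, edgeR). Acss1, the mitochondrial acetyl-CoA synthetase deacetylated by Sirt3, had the highest log2 fold change of the list (0.14, standard error 0.11). Mccc2, a subunit of the leucine-degrading methylcrotonyl-CoA carboxylase that Sirt4 acts on, had the lowest (−0.27, standard error 0.33).

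Other genes of enzymes that Sirt4 is known to act on were named here after the Sirt4 values were seen. Their log2 fold changes were 0.11 for Glud1 (glutamate dehydrogenase, standard error 0.08), 0.05 for Mlycd (malonyl-CoA decarboxylase, 0.14) and −0.08 for Mccc1 (0.22). For 3 parts of pyruvate dehydrogenase, not each a known target, they were −0.07 for Dlat (0.09), 0.09 for Pdha1 (0.08) and 0.02 for Pdhx (0.12). All 6 had overlapping groups. These are mRNA levels of enzymes that Sirt4 acts on after translation, and enzyme activity was not measured.

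Mtor, Clock, Parp1 and Gabpa, the 4 molecules that the study lists for this pathway, were chosen by the study on these same mice and are no independent evidence of a direction. The study reported Parp1 and Gabpa as higher and Mtor as lower in DJ-1-/- mice, and called the pathway upregulated. In the counts 1 of the 4 was higher with DJ-1-/- genotype and 3 were lower. The median was −0.06 on the log2 scale, and none had an unadjusted p under 0.05. Clock, a circadian transcription factor whose partner Arntl is deacetylated by Sirt1, was at −0.05 (standard error 0.08). Mtor, the nutrient-sensing kinase, was at 0.01 (0.08), Parp1 at −0.06 (0.15) and Gabpa, an ETS transcription factor, at −0.12 (0.25). No sirtuin gene is among these molecules. Over all lists together 87 of 94 genes were tested, of which 47 were higher in DJ-1-/- mice (beside 51.9% of all genes tested), and 1, or 1.15%, had an unadjusted p under 0.05, below the 2.83% over all genes.

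**Figure D5:**
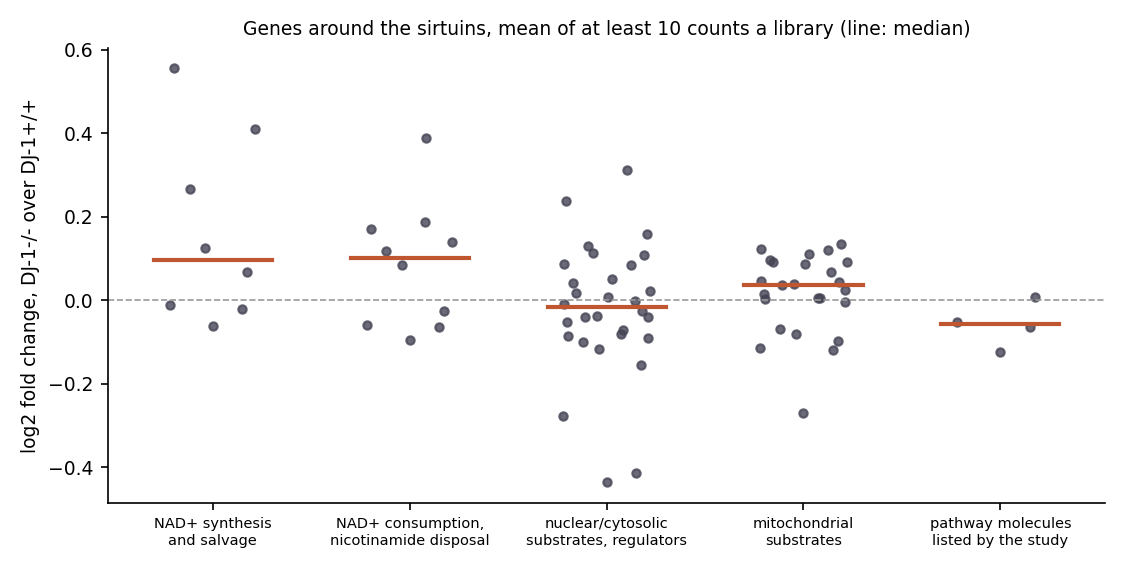
Log2 fold change of DJ-1-/- over DJ-1+/+ for each gene of the 5 lists with a mean of at least 10 counts a library (points) and the median of those genes (orange line). The medians of these genes lie between −0.06 and 0.10, beside the dashed line of no difference.

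Genes whose level followed a sirtuin most closely over the 9 mice were sought among 10770 genes with a mean of at least 20 counts a library, by Pearson's r of log2(cpm + 1). These are descriptions over 9 libraries that share depth and dissection. Picking the highest of 10770 values over so few libraries favours a large r, and none was tested. Sirt4 and Sirt6 had too few counts. For Sirt2 the closest were Rbm7 (r = 0.95) and Smug1 (0.94). For Sirt3 they were 9530068E07Rik (0.94), Glce (0.89) and Fgf14 (0.89), and for Sirt5 Rnf11 (0.96), Src (0.94) and Rhbdd1 (0.94). For Sirt1 they were Slitrk1 (0.93), Tcf3 (0.93) and Etnppl (0.92), and for Sirt7 Fam173b (0.93), Dpp7 (0.92) and Map2k2 (0.91). No sirtuin was among the 3 genes closest to another, and with Spearman's rho 3 of the 15 genes so ranked were again among the closest 3.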

How the data were processed

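RNA from midbrain containing the SNpc of 9 mice was made into 3′ mRNA-seq libraries with UMIs (QuantSeq). The authors deposited UMI counts per gene and mouse, as whole numbers without normalization, by Ensembl identifier and listing only genes with a count. The submitters' processing notes name fastp 0.20.0, STAR 2.7.3a, Subread, featureCounts 2.0.0, UMI-tools 1.0.0 and GRCm38. The strand setting and annotation release are not given in the sources used here. Genes absent from a library were set to 0, and 26576 of 26602 identifiers matched GENCODE M21 (GRCm38), the source of symbols, positions and sequences here.

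Genes whose counts summed to 10 or more (18127, all 7 sirtuins included) were tested with edgeR 4.0.16 in R 4.3.3 (TMM, estimateDisp, glmQLFit, glmQLFTest, genotype alone) with Benjamini-Hochberg adjustment over all of them. The standard error is the log2 fold change divided by the square root of F. Exact permutation tests over the 126 splits of the mice were two-sided. Scripts were tested on simulated data. Libraries of 1 genotype differed by a chi-square per degree of freedom of 1.07 to 2.27, so none was a copy. Alternatives were RLE size factors, library totals, DESeq2 1.42.0, other filters, Xist as a covariate, thinned counts and leaving out single libraries. Another was a block by replicate number (the replicate block), fitted without DJ-1-/- replicate 5. After seeing the data 2 more were added (DJ-1+/+ replicates 1 and 4 left out, and only the 6 libraries with Xist expression). Members and lists were chosen with earlier results of these data known. Named genes are the sirtuins, Park7, list genes with an unadjusted p under 0.05 or else the smallest p, the list extremes among genes with a mean of at least 10 counts, and the 3 genes most like each sirtuin. Of the latter, 1 gene is not reported here.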

Additional observations from a re-analysis of the deposited data

Results flagged for a closer look

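Among 52 sets of values by genotype, 3 held a mouse that lay apart from the rest of its group by Dixon's test, and about 2.6 are flagged by chance (1 in 20). Sirt7 in DJ-1+/+ replicate 3 was 55.8 cpm (48 counts), against 43.2 to 45.1 cpm in the other 3 DJ-1+/+ mice. The summed family level in DJ-1-/- replicate 4 was 301 cpm, against 359 to 376 cpm in the other 4. In the same mouse nuclear sirtuins made up 34.4% of the family, against 30.1% to 31.2%, while its Sirt3, Sirt4 and Sirt5 levels were each the lowest of their genotype.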

How the results depend on the processing

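The lower Sirt4 level of DJ-1-/- mice held in all 19 alternatives that gave a value (log2 fold change −1.39 to −0.95), with an unadjusted p under 0.05 in 17 and an adjusted p of 0.860 to 1. edgeR's filterByExpr removed Sirt4, and there and under both added settings (DJ-1+/+ replicates 1 and 4 left out, only the 6 libraries with Xist expression) 0 sirtuins had an unadjusted p under 0.05. The 2 added settings drop the same DJ-1+/+ mice and differ only by DJ-1-/- replicate 5. The number of sirtuins at an adjusted p under 0.05 was 0 throughout. Counts this low limit Sirt4 and Sirt6, and Sirt1 stayed at −0.12 to −0.01 under every alternative.

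The other members had values near 0 that changed sign without passing the test. Sirt2 was at 0.000125 with library totals, 0.0095 with every gene of at least 1 count and 0.044 with thinned counts, and −0.051 to 0.055 with 1 library left out. Sirt3 was at −0.013 with thinned counts and −0.065 in the libraries with Xist expression, and −0.055 to 0.14 with 1 library left out. Sirt5 was at −0.017 in the libraries with Xist expression. Sirt6 was at 0.019 with thinned counts and −0.17 to 0.040 with 1 library left out. Sirt7 was at −0.014 with the Xist covariate, −0.042 without DJ-1+/+ replicates 1 and 4 and −0.015 in the libraries with Xist expression, and −0.016 to 0.12 with 1 library left out. The cause was not tested.

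The sources do not say that replicate numbers pair the mice. Deviations of same-numbered mice from their group means correlated at 0.29, 0.06, −0.12 and −0.20. Mice with different numbers were not compared, so these values cannot settle whether any mice were paired. The replicate block was fitted without DJ-1-/- replicate 5, which has no DJ-1+/+ mouse of its number. In that fit Sirt4 was at −1.26 (unadjusted p = 0.0220, edgeR), Sirt2 at 0.016, Sirt3 at −0.065 and Sirt5 at −0.00073. With DJ-1-/- replicate 5 left out and no block, Sirt3 was at −0.055 and Sirt5 at 0.00079. With the block, 0 genes of the lists had an unadjusted p under 0.05, and 8 genes in all passed the adjusted test.

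Over all genes, 1 passed the adjusted test, against 36 with every gene of at least 1 count. The number was 2 without DJ-1+/+ replicate 2 or 3, 3 in the libraries with Xist expression and 0 in the exact permutation test. No gene could pass in the latter, where the smallest possible p is 0.0159 and 666 of 18127 genes had an unadjusted p under 0.05. Park7 was at −2.72 there, with that smallest p and an adjusted p of 1. Unadjusted calls were 285 higher and 228 lower, against 106 and 129 with DESeq2.

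Of the lists 1 gene had an unadjusted p under 0.05, against 0 with DESeq2, with every gene of at least 1 count and with the Xist covariate, 2 without DJ-1+/+ replicates 1 and 4, and 0 to 3 with 1 library left out. Without DJ-1+/+ replicates 1 and 4 Aox1 was at 0.86 (unadjusted p = 0.0452, edgeR), Crtc2 at 0.061, Acss1 at −0.013, Mccc2 at 0.15 and Mtor at −0.028. In the libraries with Xist expression Tnks was at 0.0083, Acss1 at −0.041, Mccc2 at 0.22 and Mtor at −0.021. Mtor was also at −0.0016 with RLE size factors, −0.00089 with DESeq2, −0.00014 with filterByExpr, −0.0098 with the Xist covariate and −0.020 with thinned counts. With 1 library left out Mccc2 was at −0.53 to 0.0093, Mtor at −0.054 to 0.053 and Gabpa at −0.24 to 0.00069. Ranking by Spearman's rho kept 3 of the 15 genes most like a sirtuin.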
